A study of Mus musculus with 12 samples.

Results

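Potassium channel genes were followed in RNA-seq counts from the neocortex of Chd8+/+ and Chd8+/- mice at embryonic day 12.5 (E12.5) and postnatal day 5 (P5). Members were chosen by gene symbol, as every Ensembl gene whose symbol is Kcn followed by subfamily letters and a number, and 98 of the 46603 genes counted matched. The 5 antisense transcripts among them and Kcne2 were left out, which left 92 genes. They comprise 8 Kv1 genes (Kcna), 2 Kv2 genes (Kcnb), 4 Kv3 genes (Kcnc), 3 Kv4 genes (Kcnd), 5 Kcnq genes, 8 Kcnh genes, 10 genes of silent voltage-gated subunits (Kcnf, Kcng, Kcns and Kcnv), 15 inward rectifiers (Kcnj), 14 two-pore channels (Kcnk), 8 calcium- or sodium-gated channels and their relatives (Kcnm, Kcnn, Kcnt and Kcnu) and 15 auxiliary subunits (Kcnab, Kcne, Kcnip and Kcnmb).

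Chd8 encodes a chromatin remodeling factor, and Chd8+/- mice carry 1 null allele in every cell of the body. The null allele was made by deleting exon 3 of a floxed allele with Cre driven by the β-actin promoter, the Cre transgene was then bred away, and experimental animals came from crosses of Chd8+/- mice to C57BL/6J, so that the Chd8+/+ animals share this background without the deletion. Each genotype was sequenced as 3 libraries at each stage, 12 in all, with tissue of both hemispheres at the embryonic stage and of 1 hemisphere after birth. The labels number the libraries of a group without naming the animals. P-values thus measure the spread between these samples, which may in part be technical.

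The libraries held 38774591 to 54695236 gene counts. Chd8 itself was at 232 ± 3.55 CPM, a count scaled to library size (SD, n = 3), in E12.5 Chd8+/+ and at 163 ± 3.31 in E12.5 Chd8+/- libraries, and at 149 ± 3.11 and 96.4 ± 1.93 at P5. In each of the 4 groups 1 library had Xist above 10 CPM and the other libraries had it below. The E12.5 Chd8+/+ libraries had Xist at 2.2, 2.18 and 2010 CPM. Ddx3y, a gene of the Y chromosome, was at 75.8, 66.2 and 0.209 CPM in them, and the other groups split in the same way. The libraries of a group thus come from animals of both sexes. The summed level of 7 progenitor markers was 3130 to 3370 CPM in E12.5 Chd8+/+ and 196 to 221 CPM in P5 Chd8+/+ libraries, 7 cortical markers were at 658 to 710 and 1170 to 1260 CPM, and 8 astrocyte markers were at 360 to 383 and 1720 to 1790 CPM. None of these marker genes was at 0 counts in a group. Replicate 2 of E12.5 Chd8+/- had the lowest summed cortical markers of the E12.5 libraries, at 527 CPM, and the highest summed meningeal markers, at 1040 CPM against 494 to 759 CPM in the other E12.5 libraries. Genotype results at E12.5 are therefore also given with each library left out.

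Potassium channels let potassium ions leave or enter the cell along their gradient, which sets the resting potential, ends action potentials and spaces them. Voltage-gated channels open when the membrane is depolarised, inward rectifiers and two-pore channels act near rest, and another class opens when calcium or sodium builds up inside the cell. Most are assemblies of several subunits, so that a gene can contribute a pore, a silent subunit that alters the pore it joins, or an auxiliary protein. Radial glia and newborn neurons of the embryonic cortex fire little, while neurons of the first postnatal week acquire repetitive firing.

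The start regions of the members with large stage differences are given first. RefSeq windows of the GRCm38.p6 build, from 250 bases before to 50 bases after a transcription start, were found for 67 of the 92 members. Shown are 3 of the members that rose most between E12.5 and P5, namely Kcnj4 (chr15:79505192-79505491, minus strand), Kcns1 (chr2:164171064-164171363, minus strand) and Kcnk4 (chr19:6934466-6934765, minus strand), and the 2 that fell most, Kcnk5 (chr14:20181733-20182032, minus strand) and Kcne3 (chr7:100176420-100176719, plus strand). In each, the start of the window's transcript is the start of the counted gene. They are written from 5′ to 3′ on the strand of the gene, and capitals mark the dinucleotide CG, which reads the same on both strands.
Kcnj4: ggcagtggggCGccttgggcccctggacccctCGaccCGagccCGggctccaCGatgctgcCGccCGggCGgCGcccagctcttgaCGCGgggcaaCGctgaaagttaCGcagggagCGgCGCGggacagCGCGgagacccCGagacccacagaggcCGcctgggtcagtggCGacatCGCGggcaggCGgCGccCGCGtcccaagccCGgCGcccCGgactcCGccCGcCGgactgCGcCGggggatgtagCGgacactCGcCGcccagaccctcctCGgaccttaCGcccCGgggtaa
Kcns1: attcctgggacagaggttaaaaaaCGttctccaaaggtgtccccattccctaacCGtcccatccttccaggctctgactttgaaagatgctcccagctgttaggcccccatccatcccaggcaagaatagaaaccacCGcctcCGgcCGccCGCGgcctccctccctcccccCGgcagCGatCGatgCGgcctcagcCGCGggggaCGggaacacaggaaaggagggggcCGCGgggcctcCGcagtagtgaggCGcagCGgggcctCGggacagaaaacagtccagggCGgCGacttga
Kcnk4: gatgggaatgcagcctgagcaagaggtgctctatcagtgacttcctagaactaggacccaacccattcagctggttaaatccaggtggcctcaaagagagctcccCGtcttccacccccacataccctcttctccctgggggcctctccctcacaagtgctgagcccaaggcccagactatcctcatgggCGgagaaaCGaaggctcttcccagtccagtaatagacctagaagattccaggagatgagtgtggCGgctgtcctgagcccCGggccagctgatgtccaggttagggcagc
Kcnk5: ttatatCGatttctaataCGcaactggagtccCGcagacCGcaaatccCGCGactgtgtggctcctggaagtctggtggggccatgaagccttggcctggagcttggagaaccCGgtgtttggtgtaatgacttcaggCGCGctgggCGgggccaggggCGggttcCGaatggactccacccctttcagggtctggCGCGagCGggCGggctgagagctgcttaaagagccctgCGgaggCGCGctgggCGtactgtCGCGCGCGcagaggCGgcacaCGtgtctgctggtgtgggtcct
Kcne3: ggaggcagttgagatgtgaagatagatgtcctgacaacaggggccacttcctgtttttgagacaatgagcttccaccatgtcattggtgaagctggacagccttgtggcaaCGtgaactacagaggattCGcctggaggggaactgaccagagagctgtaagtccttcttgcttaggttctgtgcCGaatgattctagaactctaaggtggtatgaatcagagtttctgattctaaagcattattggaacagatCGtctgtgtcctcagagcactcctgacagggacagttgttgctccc
The windows of Kcnj4, Kcns1 and Kcnk5 hold 41, 22 and 26 CG dinucleotides, and those of Kcnk4 and Kcne3 hold 5 and 4. A CG-rich and a CG-poor start thus occurred both among the genes that rose and among those that fell. Over all 32851 windows the median is 7, and 26.5% hold 20 or more, against 34.3% of the 67 members.

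The potassium channel genes were low as a group at E12.5 and high at P5. Levels between genes are compared in CPM per kb of exon. Summed over the 92 genes, this level was 106.1, 111.0 and 104.7 in the E12.5 Chd8+/+ libraries and 536.2, 545.5 and 531.6 in the P5 Chd8+/+ libraries, 5.01 times as high. In the Chd8+/- libraries the sum was 108.8, 102.7 and 102.8 at E12.5 and 527.6, 539.3 and 540.7 at P5. The stages did not overlap in either genotype, and the genotypes overlapped at both stages. At E12.5, 31 of the 92 genes were above 1 CPM per kb in Chd8+/+, and at P5 67 were. Because the tissue is bulk, more cells that express a gene and more RNA per cell cannot be told apart, and neither can the stage and the preparation of its libraries.

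The genes among the highest differed in part between the stages, while Kcnip3 was at rank 8 of the members at both in Chd8+/+. In E12.5 Chd8+/+ neocortex, high levels were those of Kcnk10, which encodes the two-pore channel TREK-2, at 8.07 ± 0.471 CPM per kb (SD, n = 3), Kcnk5, which encodes the two-pore channel TASK-2, at 6.52 ± 0.548, the small conductance calcium-gated channel gene Kcnn1 at 4.81 ± 0.206, and Kcnh2, the ERG1 gene, at 4.72 ± 0.256. Kcnn1 and Kcnh2 do not differ beyond their spread. In P5 Chd8+/+ high levels were those of Kcnh3 at 26.9 ± 0.426, Kcnip2 at 25.6 ± 0.719, Kcnd2 at 21.8 ± 0.1 and Kcnj4 at 17.2 ± 0.672 CPM per kb. In Chd8+/- the same genes were at 8 ± 1.03, 5.95 ± 0.165, 4.38 ± 0.13 and 4.81 ± 1 CPM per kb at E12.5, and at 29.8 ± 1.55, 25.7 ± 0.359, 20 ± 1.62 and 17.8 ± 0.311 CPM per kb at P5.

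The first comparison asks how the channel genes differ between the stages within each genotype. In Chd8+/+, 71 of the 92 genes rose from E12.5 to P5 and 7 fell, 3 were tested without a call, and 11 did not pass the filter on low counts (edgeR's quasi-likelihood test, Benjamini-Hochberg adjusted p under 0.05). Over all 19039 genes tested, 41.7% were called higher and 42.3% lower. In Chd8+/-, 71 rose and 8 fell, against 41.7% and 41.5% of all 18894 genes, and 70 and 7 of the genes were called in the same direction in both genotypes, against 39.4% and 39.7% of all genes. A rise of over 4-fold in both genotypes was seen for 44 members and 13.3% of all genes. The median log2 fold change of the members tested was 2.23 in Chd8+/+ and 2.18 in Chd8+/-, and that of all genes tested was -0.023 and 0.001. A gene can pass the filter through its P5 libraries alone, and then has to differ. Of the 70 members that pass it at each stage taken alone, 62 rose and 5 fell in Chd8+/+, against 39.8% and 43.7% of such genes. The stages did not overlap in Chd8+/+ for 78 of the 81 members tested and for 85.0% of all genes tested. An offset for gene length moved the fold change of all genes by a median of -0.256 in Chd8+/+ and -0.237 in Chd8+/-, and reversed none of the calls. Beside this, 7 of 7 progenitor markers fell and 7 of 8 astrocyte markers rose in both genotypes, striatal medium spiny neuron markers were at 19.3 to 22.5 CPM in sum in E12.5 Chd8+/+ and at 334 to 366 CPM in P5 Chd8+/+ libraries, and the part of these cell types in the channel differences was not tested.

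**Figure D1:**
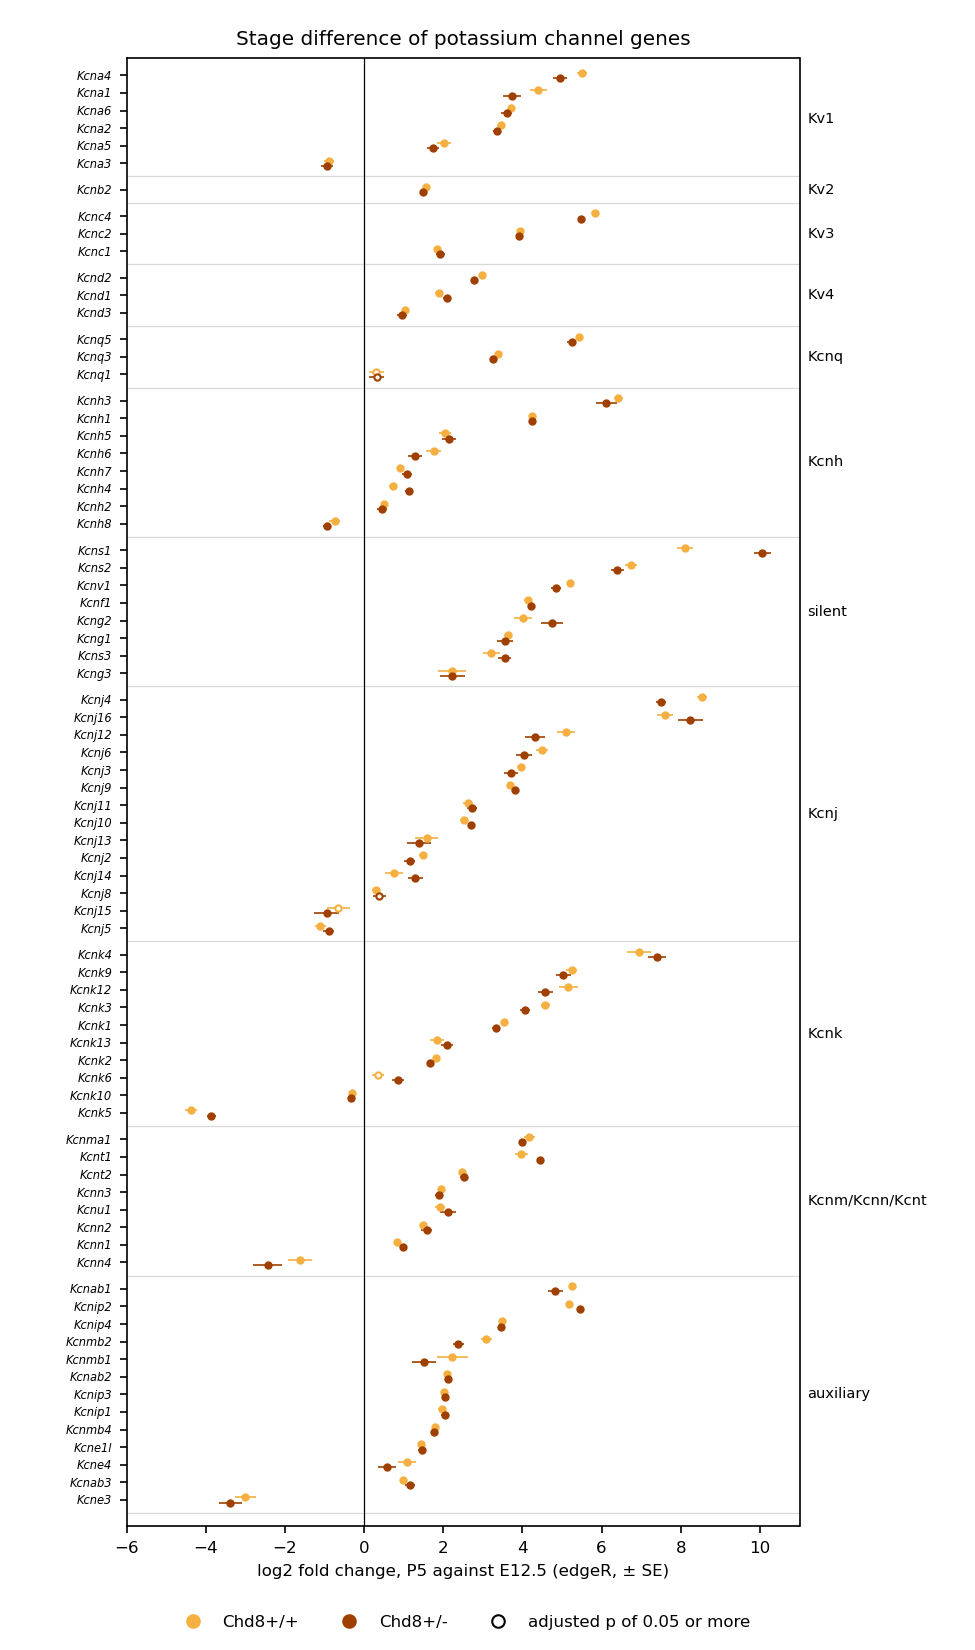
The log2 fold change at P5 against E12.5 (horizontal axis, points, with the standard error as bars) is plotted for 77 of the 81 potassium channel genes tested in Chd8+/+ and for the same genes in Chd8+/-, grouped by subfamily. Filled points have an adjusted p under 0.05; most genes lie to the right of 0, from Kcnj4 at 8.53 in Chd8+/+ down to Kcnk5 at -4.38.

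**Figure D2:**
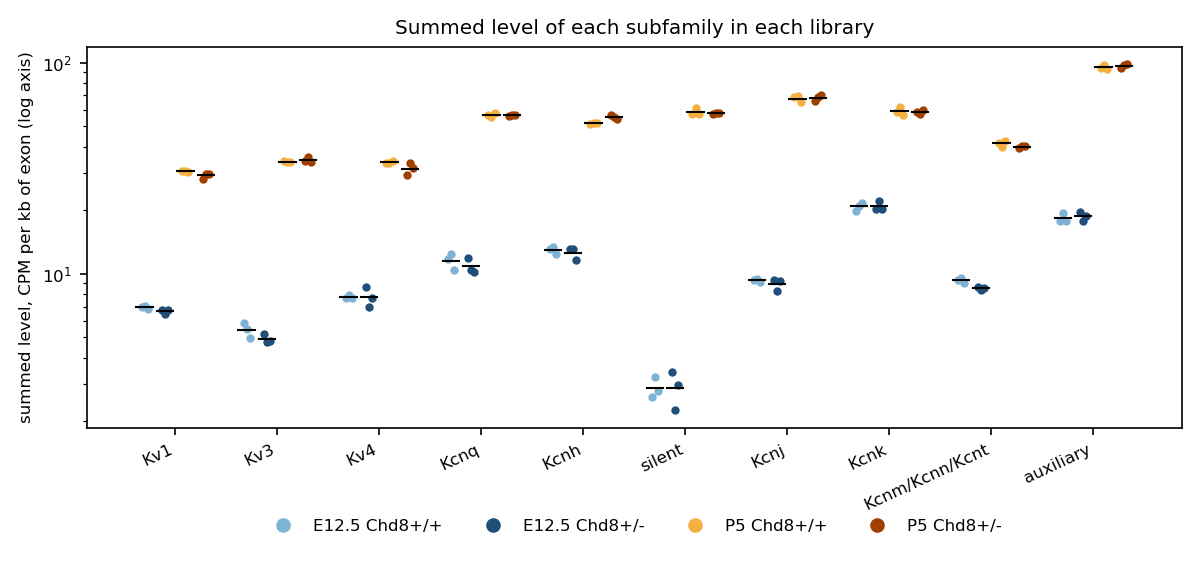
Each point is the summed level of a subfamily in 1 library, in CPM per kb of exon on a log axis, and the line is the mean of 3 libraries. P5 libraries lie above E12.5 libraries in the 10 subfamilies drawn, with the widest gap for the silent subunits (20.3 times in Chd8+/+) and the narrowest for the two-pore channels (2.82 times).

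Every subfamily was higher in sum at P5 than at E12.5 without overlap, but to unequal extents. Per kb of exon, the Chd8+/+ means rose 4.41 times for Kv1, 6.26 for Kv3, 4.34 for Kv4, 4.92 for Kcnq and 3.99 for Kcnh. They rose 20.3 times for the silent subunits, 7.26 for the inward rectifiers and 2.82 for the two-pore channels. The calcium- or sodium-gated channels and their relatives rose 4.45 times, and the auxiliary subunits 5.2 times. The share of the silent subunits in the summed level therefore went from 2.68% to 10.9%, and that of the two-pore channels from 19.5% to 10.9%. In Chd8+/- the shares were 2.75% and 10.8%, and 19.9% and 10.9%. With 3 libraries against 3, a two-sided exact permutation test cannot go below p = 0.1, which is the value of each of these sums. Adjusted over the 44 comparisons of 11 subfamilies it is 0.157.

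Among the Kv1 genes, which encode low-threshold channels of axons, 5 rose, Kcna3 fell, and Kcna7 and Kcna10 were not tested. Kcna6 was at 6.63, 6.92 and 7.23 CPM in E12.5 Chd8+/+ and at 89.3, 90.4 and 93.5 CPM in P5 Chd8+/+ libraries, although 39.6% of its exonic bases are shared with the gene Gm26673. Kcna2, a major subunit of axonal channels, went from 4.88, 6.46 and 5.64 to 63.0, 60.1 and 61.1 CPM. Kcna3, best known from lymphocytes, went the other way, from 9.25, 8.92 and 8.57 to 4.88, 5.63 and 3.93 CPM. Its lowest E12.5 library was above its highest P5 library, and it fell by 0.89 on the log2 scale in Chd8+/+ (SE 0.119, adjusted p = 1.87e-05) and by 0.94 in Chd8+/- (SE 0.151, adjusted p = 0.000294). Kcna3 and Kcna2 lie on the same strand of chromosome 3, 63.1 kb apart (chr3:107036169-107115005, GRCm38). At E12.5 Kcna3 held 67.5% of the summed Kv1 level in Chd8+/+ and at P5 Kcna6 was the leading Kv1 gene.

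The Kv3 and Kv4 genes, which carry the fast repolarising and A-type currents of neurons, all rose in both genotypes. Kcnc4 was at 0.694, 0.666 and 0.794 CPM in E12.5 Chd8+/+ and at 42.8, 41.9 and 38.3 CPM in P5 Chd8+/+ libraries (56.9-fold, adjusted p = 1.21e-13), and Kcnc1, a channel of fast-spiking cells, rose 3.54-fold (adjusted p = 1.64e-10). The stages were far apart for Kcnc4, which had the highest Kv3 level per kb in both genotypes at P5. The A-type subunits changed places, since Kcnd3 was 1.41 ± 0.0425 times as high as Kcnd2 per kb at E12.5 in Chd8+/+ and 0.367 ± 0.013 times at P5 (SD, n = 3). Kcnd2 rose 7.83-fold, from 13.9, 14.6 and 14.5 to 113, 112 and 112 CPM, and Kcnd3 rose 2.03-fold.

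Of the 5 Kcnq genes, 4 rose and Kcnq1, the cardiac and epithelial member, did not pass the test. Kcnq3, a neuronal member, rose 10.3-fold in Chd8+/+, from 18.1, 22.2 and 17.7 to 201, 191 and 205 CPM. Kcnq5, which joins Kcnq3 in some neurons, rose 43.5-fold, from 1.97, 1.72 and 1.46 to 74.1, 75.2 and 75.8 CPM. The stages did not overlap for either gene. Kcnq1 was at 1.1, 0.942 and 1.11 CPM at E12.5 and at 1.43, 1.4 and 1.08 CPM at P5 (log2 fold change 0.31, SE 0.185, adjusted p = 0.134).

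In the Kcnh family of EAG, ERG and ELK channels, 7 genes rose and Kcnh8 fell. Kcnh3, an ELK channel of forebrain neurons, went from 1.16, 1.42 and 0.815 to 94.6, 97.6 and 96.6 CPM in Chd8+/+ (85.4-fold, adjusted p = 2.16e-13). Kcnh2 was the leading Kcnh gene at E12.5 and rose the least of the 7, 1.4-fold in Chd8+/+. In Chd8+/- its log2 fold change of 0.44 (SE 0.125, adjusted p = 0.00936) became 0.2 with the length offset and lost its call (adjusted p = 0.137). Kcnh8, another ELK channel, was at 5.45, 7.15 and 7.04 CPM at E12.5 and at 4.23, 3.95 and 3.42 CPM at P5, and fell by 0.75 on the log2 scale (SE 0.131, adjusted p = 0.000181).

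The silent subunits, which form no channel alone and modify Kv2 channels, rose in 8 of 10 cases, and Kcng4 and Kcnv2 did not pass the filter. Kcns1 was counted 9 times over the 3 E12.5 Chd8+/+ libraries and 2 times over the 3 E12.5 Chd8+/- libraries. At P5 it was at 17.4, 19.3 and 17.7 CPM in Chd8+/+ and at 18.8, 20.1 and 18.3 CPM in Chd8+/-, from 2578 and 2489 counts. The ratio of depth-scaled sums was 288 in Chd8+/+ (95% exact interval 151 to 630) and 1260 in Chd8+/- (349 to 10400), intervals that cover counting error only. Kcns2 rose 107-fold and Kcnv1 36.7-fold in Chd8+/+. Kcnf1 and Kcng1, the leading silent subunits, were at 17 ± 0.773 and 15.6 ± 0.579 CPM per kb at P5. The summed silent subunits were at 58.4 CPM per kb in P5 Chd8+/+ and at 2.88 in E12.5 Chd8+/+.

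Among the 15 inward rectifiers, 12 rose in Chd8+/+, Kcnj5 fell, Kcnj15 was tested without a call (log2 fold change -0.65, adjusted p = 0.0614), and Kcnj1 was not tested. In Chd8+/- Kcnj15 fell by 0.95 on the log2 scale (SE 0.319, edgeR adjusted p = 0.0208), a call that was lost by DESeq2 (adjusted p = 0.0827) and without E12.5 Chd8+/- replicate 1 or 2 or P5 Chd8+/- replicate 1 or 2 (edgeR adjusted p up to 0.0749). Kcnj4, a strong rectifier of forebrain neurons whose start region is shown above, had the largest fitted rise of the members in Chd8+/+, while in Chd8+/- that of Kcns1 was larger. Kcnj4 was at 0.0963, 0.0689 and 0.125 CPM in E12.5 Chd8+/+, from 14 counts in all, and at 37.5, 38.2 and 35.4 CPM at P5. Its log2 fold change of 8.53 (SE 0.126) had to differ from 0, since it passes the filter on low counts through its P5 libraries alone. Kcnj16, which pairs with the glial channel Kcnj10, was counted 7 times at E12.5 and 1425 times at P5, a ratio of 205 (95% exact interval 99.0 to 510). Kcnj10 itself, the Kir4.1 gene of astrocytes, was at 1.95 ± 0.279 CPM per kb in E12.5 Chd8+/+, level with Kcnj8 at 1.94 ± 0.195 (SD, n = 3), and went from 11.1, 8.82 and 11.7 to 63.8, 63.6 and 55.0 CPM. Kcnj8, the vascular ATP-sensitive pore, was at 4.91, 5.45 and 4.45 CPM at E12.5 and at 5.55, 6.59 and 6.13 CPM at P5. Its rise of 0.3 on the log2 scale (SE 0.111, adjusted p = 0.0244) was lost with the length offset (0.04, adjusted p = 0.769), with library totals, in a model of all 12 libraries, and without E12.5 Chd8+/+ replicate 1 or 3 or P5 Chd8+/+ replicate 2.

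The G protein-gated inward rectifiers, which carry slow inhibition by transmitters, split by stage. Kcnj5, the GIRK4 gene known from the heart, was at 4.49, 5.65 and 4.56 CPM at E12.5 and at 2.57, 2.23 and 1.99 CPM at P5, a fall of 1.11 on the log2 scale (SE 0.143, adjusted p = 1.36e-05). Kcnj3, the GIRK1 gene, rose from 2.43, 3.31 and 2.78 to 41.6, 45.8 and 44.6 CPM, with 31.1% of its exonic bases shared with Gm26794. Kcnj9, the GIRK3 gene, rose 12.8-fold, and Kcnj6, the GIRK2 gene, 22.6-fold. Per kb, Kcnj5 was 1.9 to 2.14 times as high as Kcnj3 in the E12.5 Chd8+/+ libraries and 0.0516 to 0.0716 times in the P5 Chd8+/+ libraries. In Chd8+/- the ratios were 1.26 to 2.04 and 0.0606 to 0.0708.

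**Figure D3:**
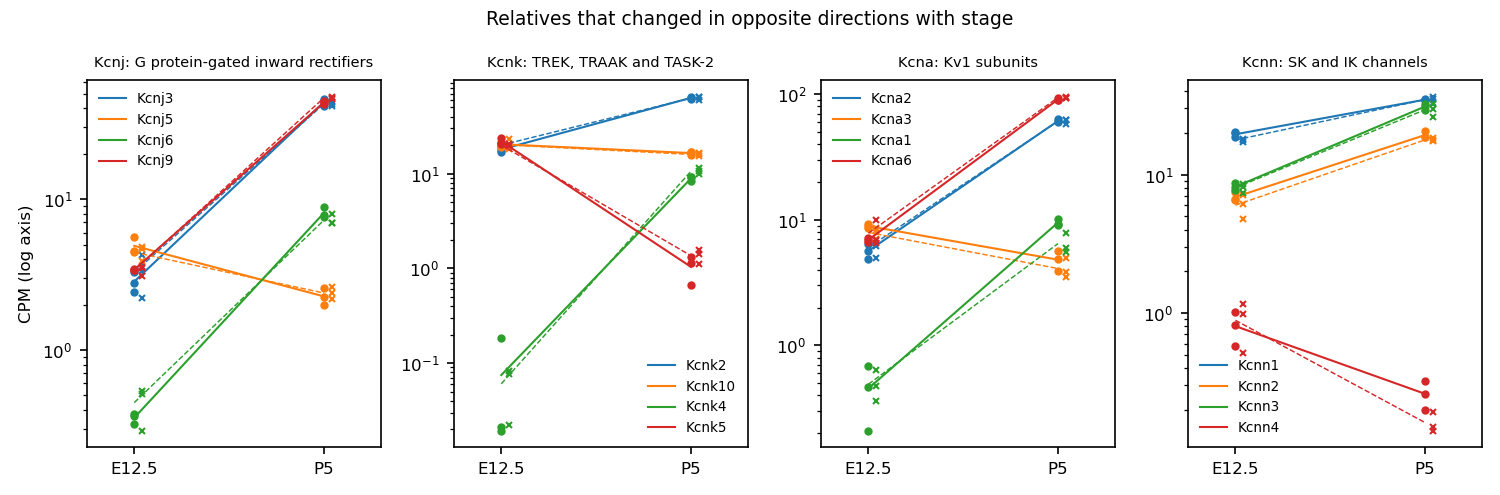
CPM on a log axis at E12.5 and P5 is plotted for 4 genes of each of 4 families, with points and solid lines for Chd8+/+ libraries and means, and crosses and broken lines for Chd8+/-. In each panel Kcnj5, Kcnk5 with Kcnk10, Kcna3 or Kcnn4 goes down while its relatives go up.

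The two-pore channels, which pass background current at rest, held the gene with the largest fall. Of 14 genes, 7 rose in Chd8+/+, Kcnk5 and Kcnk10 fell, Kcnk6 was tested without a call, and 4 were not tested. Kcnk5 was at 20.9, 20.8 and 24.1 CPM in E12.5 Chd8+/+ and at 1.32, 1.13 and 0.662 CPM at P5, a 20.9-fold fall (log2 fold change -4.38, SE 0.156, adjusted p = 6.42e-11). In Chd8+/- it went from 19.4, 20.4 and 20.3 to 1.1, 1.41 and 1.57 CPM. Kcnk10, its neighbour in level at E12.5, fell by 0.31 only, from 19.2, 20.6 and 21.6 to 15.8, 16.9 and 16.8 CPM (SE 0.0654, adjusted p = 0.000815). Kcnk2, which encodes TREK-1 and shares 12.2% of its exonic bases with A430027H14Rik, rose 3.51-fold, and Kcnk1, which encodes TWIK-1, rose 11.7-fold to the highest two-pore level at P5. Kcnk4, the TRAAK gene, was counted 10 times at E12.5 and 1271 times at P5, a ratio of 128 (95% exact interval 69.2 to 267, for counting error only). Of the 10 counts, 8 were in E12.5 Chd8+/+ replicate 2, and the fitted log2 fold change of 6.94 was 8.63 without that library, above the 8.36 of Kcnj4 in that fit. Kcnk16 had no count in any library.

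Of the calcium- or sodium-gated channels and their relatives, 7 rose and Kcnn4 fell. Kcnma1, the pore of the large conductance BK channel, rose 18-fold in Chd8+/+, from 3.55, 4.23 and 2.49 to 63.7, 65.0 and 55.1 CPM. Kcnt1, a sodium-activated channel, rose 15.6-fold, from 9.23, 7.84 and 5.7 to 117, 101 and 140 CPM, and was the leading gene of the group per kb at P5, with the wide spread of 12.5 ± 2.08 CPM per kb. Kcnn1 led at E12.5 and rose 1.78-fold, and Kcnn2 rose 2.8-fold. Kcnn4, the intermediate conductance channel of blood and epithelial cells, was at 1.02, 0.574 and 0.815 CPM at E12.5 and at 0.261, 0.321 and 0.199 CPM at P5. Its log2 fold change was -1.63 (SE 0.301), and it passes the filter on low counts through its E12.5 libraries alone. The summed level of 5 erythrocyte markers was 2140 to 2550 CPM in E12.5 Chd8+/+ and 53.8 to 56.3 CPM in P5 Chd8+/+ libraries, and its part in the Kcnn4 difference was not tested.

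The auxiliary subunits rose in 12 of 15 cases, Kcne3 fell, and Kcne1 and Kcnmb3 were not tested. Kcnip2, a partner of Kv4 pores, went from 2.43, 2.76 and 2.26 to 86.4, 91.4 and 89.4 CPM in Chd8+/+ (36.0-fold, adjusted p = 7.88e-14), above the 7.83-fold rise of its partner Kcnd2. Kcnip3 was at 3.91 ± 0.287 and Kcne1l at 3.59 ± 0.374 CPM per kb in E12.5 Chd8+/+ (SD, n = 3), which overlap. Kcnip3 rose 4.03-fold, and Kcnip1 rose 3.92-fold. Of the subunits of Kv1 channels, Kcnab1 rose 38.4-fold and Kcnab2 4.25-fold. Kcne3, a partner of Kcnq1 in epithelia, was at 1.1, 1.22 and 1.13 CPM at E12.5 and at 0.0931, 0.161 and 0.176 CPM at P5, from 164 and 20 counts. It fell by 3.00 on the log2 scale in Chd8+/+ (SE 0.274) and by 3.38 in Chd8+/- (SE 0.281). Kcne3 passes the filter on low counts through its E12.5 libraries alone, so that it had to differ.

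Genes outside the family that anchor, traffic or modify these channels were taken as a list of 26. In Chd8+/+, 22 of the 25 tested rose, 1 fell and the median log2 fold change was 2.18, against 41.7% higher, 42.3% lower and a median of -0.023 over all genes tested. In Chd8+/-, 21 of 24 rose and 2 fell, against 41.7% and 41.5% of all genes. Hcn2, a subunit of the cation channels that oppose potassium channels near rest, rose 43.4-fold in Chd8+/+. The gene that fell was Cntnap2, which gathers Kv1 channels beside the node of Ranvier, from 231 to 127 CPM on average (log2 fold change -0.86, SE 0.048, adjusted p = 4.6e-09).

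The second comparison asks whether Chd8+/- and Chd8+/+ differ at E12.5. Of 72 potassium channel genes that passed the filter, 0 were called by edgeR at an adjusted p under 0.05 and 0 by DESeq2, which gave an adjusted p for 45 of the members. Over all genes, these tools called 0.00553% and 0.0374%. At an unadjusted p under 0.05, edgeR had 8 members (4 higher and 4 lower), 11.1% of those tested, against 5.15% of all 18081 genes tested (2.31% higher and 2.84% lower). The groups did not overlap for 7 members, 9.72% of those tested, against 11.4% of all genes. The median log2 fold change was 0.022 over the members tested and 0.001 over all genes.

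The 8 genes had an adjusted p of 0.942 each, and between 0.763 and 1 with any library left out. Kcnmb2, an inactivating subunit of BK channels, was at 0.829, 1.06 and 0.773 CPM in Chd8+/+ and at 1.35, 1.74 and 1.19 CPM in Chd8+/- (log2 fold change 0.69, SE 0.213). Its genotypes did not overlap, but it rests on 126 and 189 counts, and with 1 library left out the log2 fold change was 0.52 to 0.84. Kcnk6, the TWIK-2 gene, was lower, at 1.81, 2.14 and 1.69 against 1.25, 1.41 and 1.25 CPM (log2 fold change -0.53, SE 0.163), and Kcnh4, an ELK channel gene, was at 16.2, 14.1 and 12.8 against 12, 12.5 and 10.9 CPM (log2 fold change -0.29, SE 0.0976). Neither pair of groups overlapped. Also among the 8 were Kcnt1 (log2 fold change -0.44), Kcnk3 (0.58), Kcnk2 (0.15) and Kcnc4 (0.45), of which Kcnk2 and Kcnc4 did not overlap.

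The third comparison asks the same at P5. Of 80 potassium channel genes that passed the filter, edgeR called 0 at an adjusted p under 0.05, where it called 0.00536% of all 18666 genes. At an unadjusted p under 0.05 it had 17 members, 7 higher and 10 lower, 21.2% of those tested, against 17.8% of all genes (8.0% higher and 9.77% lower). The groups did not overlap for 20 of the 80 members, and for 23.4% of all genes. DESeq2 gave an adjusted p for 63 members and called 2 of them, Kcna1 lower and Kcnh3 higher, 3.17% against 5.28% of all genes (1.71% higher and 3.57% lower). The shares among the channel genes were thus near those of all genes, and the median log2 fold change of the members was 0.007 against 0.002 for all genes. Beside these values, all 8 striatal medium spiny neuron markers were lower in Chd8+/- at an unadjusted p under 0.05 (334 to 366 CPM in sum in Chd8+/+ and 245 to 301 CPM in Chd8+/-), as were 9 of 12 choroid plexus markers (637 to 769 and 501 to 548 CPM) and 6 of 8 endothelial markers (223 to 253 and 197 to 222 CPM). None of these markers was at 0 counts in a P5 group, and their part in the channel values was not tested.

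**Figure D4:**
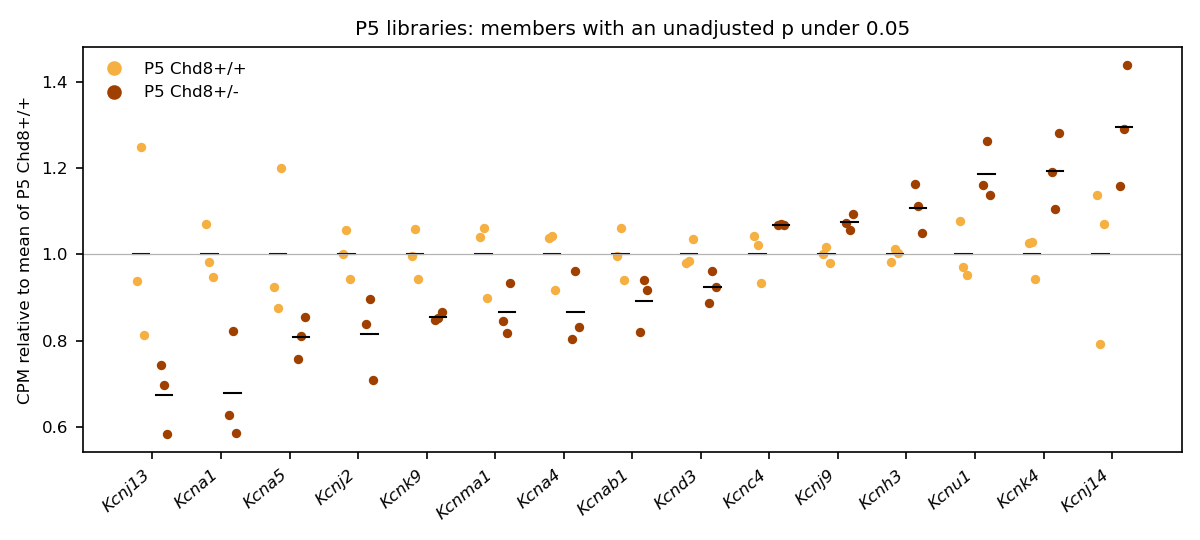
Of the 17 potassium channel genes with an unadjusted p under 0.05 at P5, 15 are plotted by library, as CPM divided by the mean of P5 Chd8+/+, with lines at group means. None has an edgeR adjusted p under 0.05, and Kcnma1 and Kcna4 are the genes whose groups overlap.

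Kcna1, the Kv1.1 gene, which restrains firing from the axon, was at 10.2, 9.35 and 9.02 CPM in P5 Chd8+/+ and at 5.99, 7.84 and 5.58 CPM in P5 Chd8+/- libraries. All Chd8+/- libraries were below all Chd8+/+ libraries, and the level was 1.46-fold lower (log2 fold change -0.54, SE 0.121, edgeR adjusted p = 0.109, DESeq2 adjusted p = 0.0041). The edgeR value passed the threshold without P5 Chd8+/- replicate 2, the highest of its group (log2 fold change -0.7, adjusted p = 0.0205), and was 0.0205 to 0.39 over all libraries left out in turn. DESeq2 called it in 2 of the 4 such fits that gave it an adjusted p (7.82e-05 to 0.153) and with a length offset (0.00874). Kcna1 lies 61.9 kb from Kcna6 on chromosome 6, in the same orientation (chr6:126640397-126740674, GRCm38), and Kcna6 was at 89.3, 90.4 and 93.5 against 93.4, 93.9 and 95.7 CPM. The other Kv1 genes with an unadjusted p under 0.05 were Kcna4 (log2 fold change -0.19, edgeR adjusted p = 0.247) and Kcna5 (-0.29, adjusted p = 0.281). The summed Kv1 level per kb was 30.65, 30.73 and 30.46 in Chd8+/+ and 28.26, 29.67 and 29.86 in Chd8+/-, without overlap (exact permutation p = 0.1, the smallest possible).

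Kcnh3, the channel gene with the highest level at P5, was higher in Chd8+/-, at 112, 107 and 101 CPM against 94.6, 97.6 and 96.6 CPM. The groups did not overlap, and the difference was 1.12-fold (log2 fold change 0.17, SE 0.0417, edgeR adjusted p = 0.116, DESeq2 adjusted p = 0.0269). DESeq2 with a length offset gave 0.0518, and with 1 library left out it called Kcnh3 in 1 of 6 fits (0.0169 to 0.278). Kcnk4 was at 9.14, 9.16 and 8.4 against 10.6, 9.83 and 11.4 CPM (log2 fold change 0.27, SE 0.081, edgeR adjusted p = 0.148). Its genotypes did not overlap.

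Of the other genes in this range, Kcnj9 (log2 fold change 0.12), Kcnu1 (0.26), Kcnc4 (0.11) and Kcnj14 (0.39) were higher in Chd8+/-, with edgeR adjusted p between 0.174 and 0.279. Lower were Kcnj2, a strong inward rectifier (log2 fold change -0.28), the TASK-3 gene Kcnk9 (-0.21), Kcnma1 (-0.19), Kcnd3 (-0.1) and Kcnab1 (-0.15), with adjusted p between 0.174 and 0.248. Kcnma1 was at 63.7, 65.0 and 55.1 against 51.9, 50.2 and 57.2 CPM, and DESeq2 called it without P5 Chd8+/+ replicate 3, its lowest Chd8+/+ library (adjusted p = 0.00943). The falls of Kcnd3 and Kcnab1 were -0.04 and -0.09 with the length offset, where their unadjusted p was 0.349 and 0.121.

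Kcnj13, the Kir7.1 gene of the choroid plexus and other epithelia, was at 1.45, 1.93 and 1.26 CPM in P5 Chd8+/+ and at 1.15, 1.08 and 0.904 CPM in P5 Chd8+/- libraries, from 219 and 136 counts. The groups did not overlap (log2 fold change -0.55, SE 0.196, edgeR adjusted p = 0.196). Its exons share 49.1% of their bases with Gigyf2, so that reads of these genes could not be separated without strand. It moved beside the 12 choroid plexus markers, which had a median log2 fold change of -0.6 and were all below 0, none with an edgeR adjusted p under 0.05. DESeq2 called 4 of them lower, Ttr, Clic6, Aqp1 and Enpp2, at an adjusted p of 7.66e-06 to 0.0207. The part of choroid plexus in the value was not tested. Kcnj8 was at 5.55, 6.59 and 6.13 against 5.7, 5.73 and 5.98 CPM. Abcc9, which encodes its sulfonylurea receptor partner, was lower in Chd8+/- by DESeq2 alone (log2 fold change -0.38, SE 0.0653, edgeR adjusted p = 0.095, DESeq2 adjusted p = 0.00108). Of the list of 26 partners, 25 were tested at P5, 0 were called by edgeR, and 8 were lower and 0 higher at an unadjusted p under 0.05, against 9.77% and 8.0% of all genes tested. Dlg2, which anchors Kv1 channels, was at 301 and 266 CPM on average (log2 fold change -0.16, edgeR adjusted p = 0.123, DESeq2 adjusted p = 0.011).

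The summed levels of the subfamilies were also compared between the genotypes. Among the sums that did not overlap at P5 were those of Kcnh, which changed by 6.54%, Kv4 (-6.63%) and Kv1 (-4.42%). Within the Kcnh sum of 51.7 CPM per kb in Chd8+/+ and 55.1 in Chd8+/-, Kcnh3 alone was at 26.9 and 29.8. Of the 8 Kcnh genes, 4 had a log2 fold change above 0 and 4 below. At E12.5 the sums of the calcium- or sodium-gated channels and their relatives (-8.56%) and of Kv1 (-4.35%) did not overlap. Each of these differences between sums has an exact permutation p of 0.1, the smallest possible, and an adjusted p of 0.157 over the 44 comparisons.

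The last comparison asks whether the genotype difference changed with stage, by an interaction term fitted to the 12 libraries together. Of 82 members tested, edgeR called 0 at an adjusted p under 0.05, as it did among all 19676 genes, and DESeq2 called 0 of the 27 members for which it gave an adjusted p, against 0.0938% of all genes. At an unadjusted p under 0.05 there were 13 members, 6 with a positive and 7 with a negative value, which are 7.32% and 8.54% of those tested against 3.15% and 6.87% of all genes. Kcnmb2 had the smallest p (interaction -0.72 on the log2 scale, SE 0.209, edgeR adjusted p = 0.362), since it was higher in Chd8+/- at E12.5 and at 7.97, 7.46 and 7.13 against 7.19, 7.04 and 7.9 CPM at P5. Kcnh4 had an interaction of 0.4 (edgeR adjusted p = 0.411). Also in this range were Kcnk3, Kcnj4, Kcnd2, Kcna4 and Kcnv1 with negative values and Kcns1, Kcnk6, Kcnip2, Kcnt1 and Kcnk5 with positive ones, with an adjusted p of 0.428 to 0.49. The values of Kcns1 and Kcnj4 rest on 2 to 28 counts in each E12.5 group.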

How the data were processed

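RNA-seq was analysed from 12 neocortex libraries, 3 per genotype and stage. The deposited values are raw counts per gene and sequencing run, which the authors made by trimming reads (Trim Galore 0.4.1), aligning them to GRCm38.p4 with Tophat 2.1.0 and counting them with FeatureCounts 1.5.0. At P5 the recorded counting command sets no strand, and for E12.5 the command is not given in the sources used here, so overlapping genes on opposite strands cannot be separated. Of the 92 members, 19 share exonic bases with another gene and 5 share over 10%. The 2 runs of a library were summed, since their chi-squared divided by its degrees of freedom was 1.18 to 1.54, and 7.09 to 49.7 between libraries of a group. Symbols were found for 46005 of 46603 gene identifiers.

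Each comparison was fitted across all genes with edgeR 4.0.16 in R 4.3.3, using the quasi-likelihood test after TMM normalization and filterByExpr, with Benjamini-Hochberg adjusted p under 0.05 as the threshold. A comparison used its own 2 groups of 3 libraries, and the interaction all 12. CPM uses TMM library sizes over all 12 libraries, and levels per kb divide it by the exonic length deposited with the counts. Subfamily sums were compared by two-sided exact permutation tests. Folds of genes with few counts carry exact binomial intervals at 95%, for counting error only. Alternatives were DESeq2 1.42.0, other filters (at least 1 count, or CPM above 1 in 3 libraries), RLE, upper quartile and library total scaling, length offsets (loess span 0.5), a threshold of 0.1, all libraries in 1 model, a replicate block, and each library left out. DESeq2 with a library left out or with length offsets was added after seeing the data. The fits were tested on simulated data with known changes. For log2 changes of 0.2 and 0.3 between genotypes, edgeR recovered 8.16% and 30.6% of genes at P5, and 0% and 22% at E12.5. Small genotype differences can thus go uncalled. Of the DESeq2 calls in these data, 15.1% at P5 and 24.3% at E12.5 were genes without a change. Named in the text are members with an unadjusted p under 0.05 or a DESeq2 call in a genotype comparison, the 5 largest rises and falls with stage in Chd8+/+ among called members that do not overlap, leading members of the subfamilies per kb, and well-known members. Others are given by counts, and some genes are not reported here. Promoter windows were matched to RefSeq by symbol. The members and lists were chosen with earlier results of these data known. Summaries used pandas 2.3.3 under Python 3.11.15, and plots matplotlib 3.10.9.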

Additional observations from a re-analysis of the deposited data

How the results depend on the processing

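The counts of potassium channel genes called between the stages kept their direction under the alternatives run, with 69 to 73 higher and 6 to 8 lower at P5 in Chd8+/+ and 68 to 73 higher and 6 to 8 lower in Chd8+/-. No called member reversed its direction in a stage fit. At E12.5 and for the interaction, 0 members were called under each alternative. The P5 genotype counts, 0 in each direction, changed as follows. DESeq2 called 1 higher and 1 lower, edgeR on all genes with at least 1 count called 2 higher, Kcnh3 among them, and 2 lower (Kcna1 and Kcnma1), and DESeq2 with gene length offsets called 1 lower. Over all genes these settings called 653 of 12362, 995 of 31265 and 260 of 13542 genes, against 1 of 18666 in the edgeR fit as reported. With 1 library left out, edgeR called 0 higher and 0 to 1 lower (without P5 Chd8+/- replicate 2), and DESeq2 called 0 to 1 higher (without P5 Chd8+/- replicate 3) and 0 to 2 lower (without P5 Chd8+/+ replicate 3). The median log2 fold change of the members was 1.958 to 2.541 in Chd8+/+ and 1.924 to 2.535 in Chd8+/- over the alternatives, lowest with length offsets and highest with the filter at CPM above 1.

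The labels do not say whether the same replicate number pairs the libraries. The correlations of same-numbered deviations between genotypes were -0.1555, -0.06351 and -0.04935 at E12.5 and 0.1869, 0.07829 and 0.03836 at P5. Those of different numbers were -0.0745 to 0.1426 at E12.5 and -0.1379 to 0.07191 at P5. At P5 the same-numbered value was the highest for each Chd8+/+ library. With the replicate number as a block, 71 members were higher and 8 lower at P5 in Chd8+/+, 71 and 8 in Chd8+/-, and 0 were called between genotypes at either stage or for the interaction. The 11 members that did not pass the filter on low counts were not tested in the Chd8+/+ stage fit, and Kcnk16 among them had 0 counts.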
